A study of Mus musculus with 10 samples.

Results

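Mammary normal fibroblasts (NFs) of both CD26 subsets were grown mixed in one gel, with or without tumor cells, and the 6 NF libraries of the 10 libraries in the series were used to ask which genes changed by a different amount in CD26- than in CD26+ NFs. The libraries were chosen by their labels: CD26- and CD26+ NFs of gel 1, which held NFs alone, and of gels 4 and 5, which held NFs with tumor cells. For each of 16231 genes tested, out of 55486 in the count table, the difference CD26+ minus CD26- beside tumor cells was set against the same difference in NFs alone. This difference of differences is called the interaction here. It is positive where a gene rose more, or fell less, in CD26+ NFs, and a gene was counted as called when its adjusted p was under 0.05 and the sign was the same in gels 4 and 5. A log2 value given with an adjusted p after a gene's levels or role is its interaction unless another quantity is named, and SE is its standard error.

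The NFs were isolated from the mammary gland of mTmG mice aged 8 weeks, whose cells are red (Tomato) until Cre recombinase turns them green (GFP). Sorted CD26- and CD26+ NFs were kept in flat culture for a week, and CD26+ NFs were then switched to GFP with a Cre-carrying adenovirus, so that virus exposure and subset cannot be told apart. Equal parts of both subsets were embedded in gels of collagen and basement membrane extract for 7 days, and the red CD26- NFs, the green CD26+ NFs and any tumor cells were then separated by sorting. Any CD26+ NFs left unswitched would stay red and be sorted with the CD26- NFs, which was not tested. The tumor cells were lines of invasive lobular carcinoma from mice in which Cre driven by the Wap promoter deletes floxed Cdh1 in mammary epithelium. Gel 4 held line 13-MCB-17 and gel 5 line 10-SJK-221, so the co-culture gels were not repeats of a single line. NFs were sorted from pooled mice per the study's methods. Each subset alone had 1 library, and nothing in the labels says that gels 4 and 5 held NFs of separate animals. The p-values therefore measure only the spread between the co-culture libraries of gels 4 and 5. NFs alone were assumed to vary by the same amount, and their own spread was not measured.

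CD26, a cell surface peptidase encoded by Dpp4, marks fibroblasts of the adventitia and interstitium that serve as a reserve for other fibroblast states. Fibroblasts shape their surroundings by secreting collagens, elastic fibers and proteases, and they signal to neighboring cells through growth factors, Wnt modulators, chemokines and guidance cues. Beside tumor cells they can take on contractile, matrix-producing or inflammatory states.

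The NF libraries held 14142334 to 17376216 counts. A count of 0 allows up to 3 counts, or between 0.173 and 0.212 CPM, the unit that divides each count by its library's total, and this floor covers counting error only. All 10 fibroblast markers were above the floor in all 6 libraries. Their summed level was 77152 (CD26-) and 71959 CPM (CD26+) alone, 39858 and 25021 CPM in gel 4, and 43562 and 31799 CPM in gel 5, lower beside tumor cells and lowest in CD26+ NFs there. Col1a1, Col1a2 and Col3a1 made up most of each sum, so the sums do not describe the markers as a set. Beside tumor cells, 2 of the 10 markers rose and 2 fell in CD26- NFs, and 1 rose and 3 fell in CD26+ NFs (adjusted p under 0.05). Dpp4 was detected at 0, 0 and 1 counts in CD26- NFs of gels 1, 4 and 5, and at 4, 12 and 4 counts in CD26+ NFs. The order of the subsets followed the labels in each gel, at levels close to the floor. The 12 epithelial markers summed to 0.807 and 1.12 CPM in NFs alone. Beside tumor cells the sums were 137 CPM (CD26-) against 204 CPM (CD26+) in gel 4, and 169 against 378 CPM in gel 5. Set against the tumor library of the same gel, this corresponded to a tumor RNA share of 2.56% and 2.75% in CD26- NFs and 3.82% and 6.15% in CD26+ NFs of gels 4 and 5.

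Many genes responded to tumor cells in each subset. In CD26- NFs 4997 genes (30.8% of those tested) passed between co-culture and NFs alone, and in CD26+ NFs 5556 genes (34.2%). Both responses passed with the same direction in 2108 rising and 1656 falling genes, and with opposite directions in 12 genes. Both responses were fitted together with the interaction from the same libraries. Between the subsets within co-culture, 975 genes (6.01%) passed.

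The interaction was called for 61 genes (0.376% of 16231), 37 positive (0.228%) and 24 negative (0.148%). The same sign in gels 4 and 5 was part of the call, so nothing is read from it in the 61. Of all tested genes 11428 (70.4%) had the same sign. Both gels were set against the same gel of NFs alone. The unadjusted p was under 0.05 for 1265 genes (7.79%). Since the subsets of a gel shared that gel, the gel was also fitted as a replicate block: 395 genes (2.43%) were then called, among them all 61, with 1 residual degree of freedom.

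The count depended on the libraries fitted. Without the CD26+ library of gel 4 or of gel 5, edgeR called no gene, with 1232 and 1772 genes at an unadjusted p under 0.05. Without the CD26- library of gel 4 or of gel 5, 30 and 27 genes were called, 27 and 25 of them among the 61. Each of these fits had 1 residual degree of freedom: the subset that lost a library was left with 1 in each culture and was assumed to vary like the co-culture pair of the other subset. The 61 interactions had the same sign in all 4 fits. DESeq2 called 97 genes in all 6 libraries, 58 of the 61 among them, and limma-voom 8 genes, all among the 61.

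**Figure D1:**
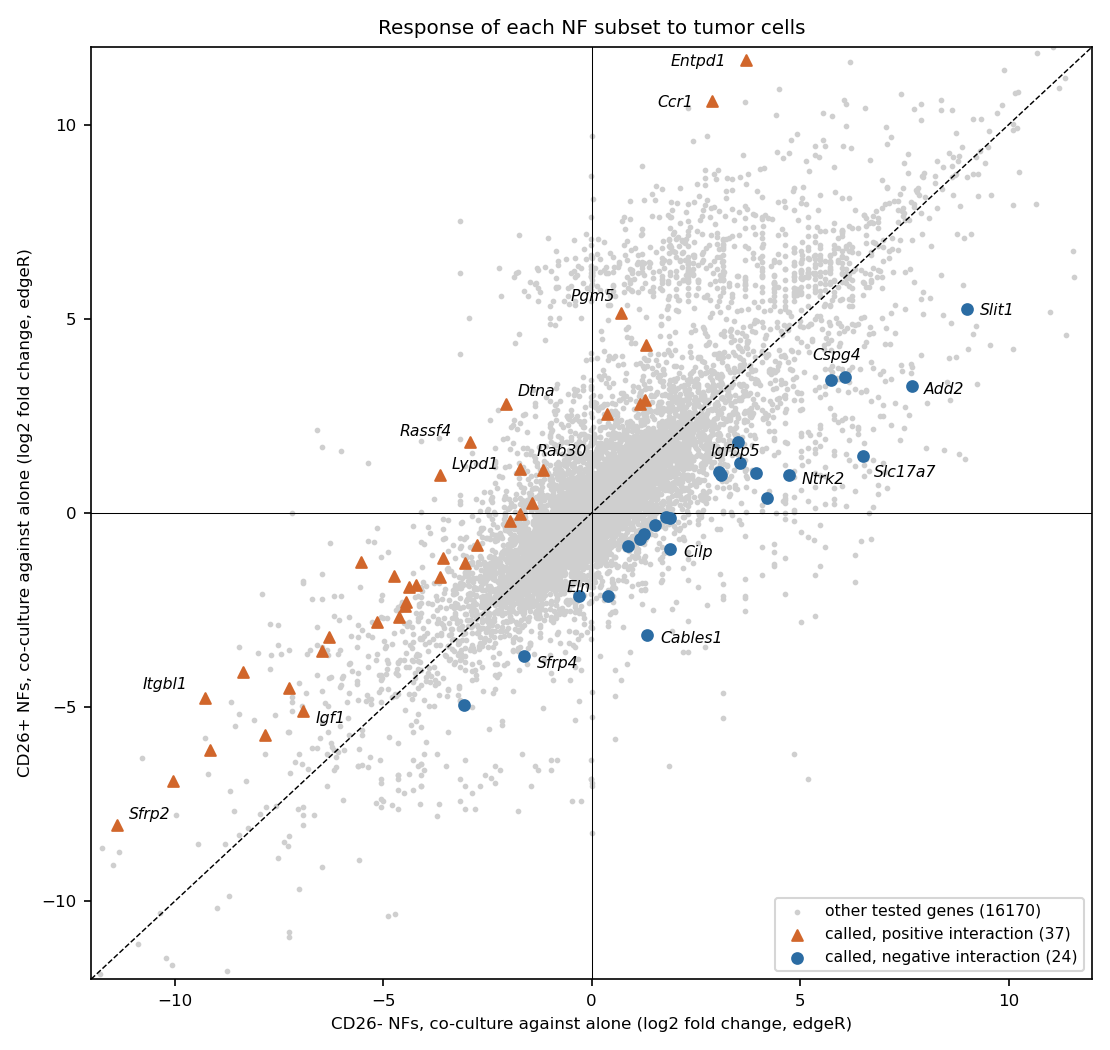
Log2 fold change of co-culture against NFs alone in CD26- NFs (horizontal) and CD26+ NFs (vertical) for the 16231 genes tested, with the 61 called genes in color and the dashed line marking equal responses. Called genes with a positive interaction (triangles, 37) lie above the line, mostly among genes that fell, and those with a negative interaction (circles, 24) lie below it, mostly among genes that rose in CD26- NFs. The plot omits 7 genes beyond 12 log2 units, none of them called.

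The 61 genes fell into few patterns when each subset's own response was read beside the interaction. Of the 37 positive genes, 22 fell in both subsets and fell further in CD26- NFs, 3 fell in CD26- NFs without passing in CD26+ NFs, 5 fell in CD26- and rose in CD26+ NFs, 2 rose in CD26+ NFs without passing in CD26- NFs, and 5 rose in both. Of the 24 negative genes, 11 rose in both subsets and rose further in CD26- NFs, 5 rose in CD26- NFs without passing in CD26+ NFs, 4 rose in CD26- and fell in CD26+ NFs, 2 fell in CD26+ NFs without passing in CD26- NFs, and 2 fell in both. Over all genes tested, 10.2% fell and 13.0% rose in both subsets, and 58.2% passed in neither. The 61 genes were chosen by their interaction, so nothing is read from how many show each pattern or from the next counts. In 34 genes the subsets differed more in co-culture than alone, and in 27 genes they differed more alone. The latter 27 lean most on the single pair of libraries of gel 1. The interaction contains the difference between subsets within co-culture, so the choice of the 61 genes used it and nothing is read from how often it passed. It passed for 44 of the 61, 31 positive and 13 negative, and for 6.01% of all genes. With the gel as block it passed for 49, 34 positive and 15 negative, the 5 added genes being Pgm5, Smoc1, Igf1, Sfrp4 and Igfbp5.

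**Figure D2:**
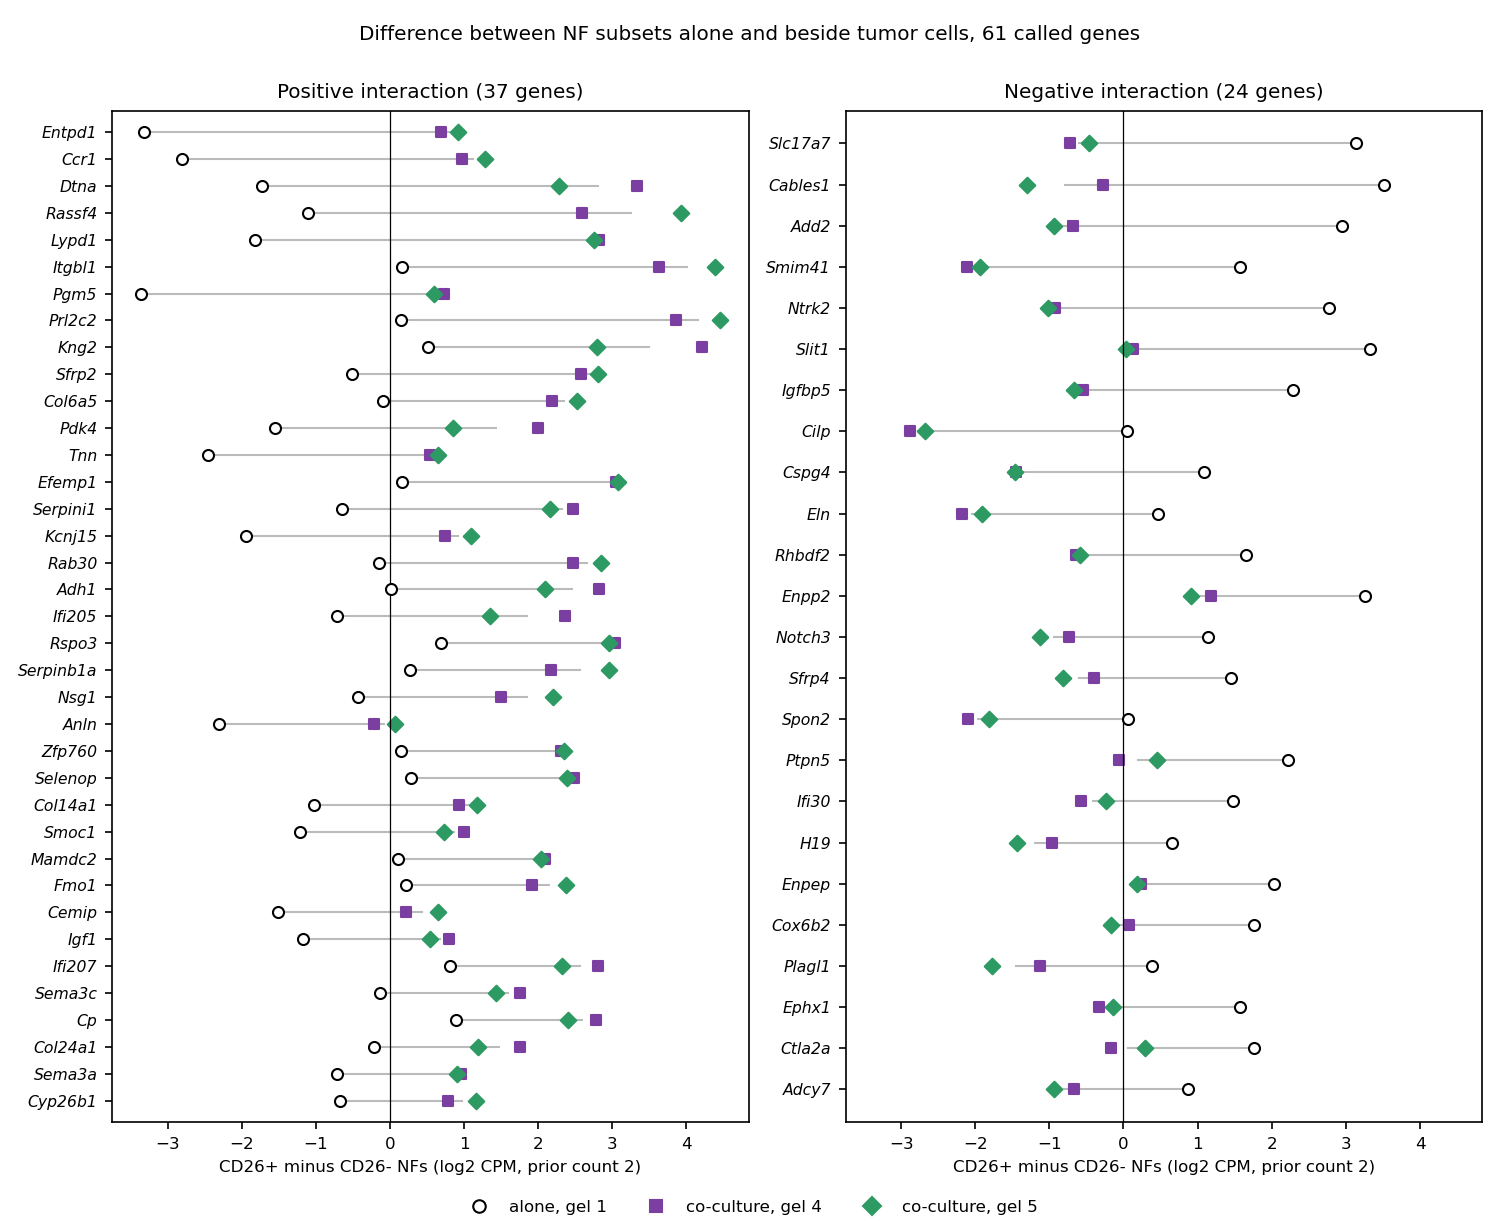
CD26+ minus CD26- NFs on the log2 CPM scale (prior count 2) for the 61 called genes, alone in gel 1 (open circles) and in co-culture gels 4 (squares) and 5 (diamonds); the grey line joins the value alone to the mean of gels 4 and 5. In the left panel (37 genes) both co-culture values lie to the right of the value alone, and in the right panel (24 genes) to its left.

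Lypd1, Rab30, Eln, Cilp, Igfbp5 and Ntrk2 kept the call in 9 of 11 other fits, the most of any gene. In the remaining fits, those without a CD26+ co-culture library, no gene was called. These 6 genes are described first.

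Lypd1 (ENSMUSG00000026344, chr1:125867622-125913101, GRCm38) encodes a GPI-anchored protein of the Ly6 family that modulates nicotinic acetylcholine receptors. It stood at 117 CPM (CD26-) against 36.6 CPM (CD26+) alone, 10.1 against 79.7 CPM in gel 4, and 7.77 against 61.0 CPM in gel 5. CD26- NFs were the higher subset alone and the lower one in both co-culture gels. Lypd1 fell in CD26- NFs (log2 -3.65) and rose in CD26+ NFs (log2 0.98), and the interaction was the one with the lowest p of all genes (log2 4.63, SE 0.34, adjusted p = 5e-05).

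Rab30 (ENSMUSG00000030643, chr7:92741603-92844535), a small GTPase of the Golgi, showed the same crossing from an equal start. It was at 25.1 CPM alone, 7.15 CPM in gel 4 and 7.48 CPM in gel 5 for CD26-, and at 25.0, 44.8 and 62.6 CPM in that order for CD26+ NFs. Both co-culture libraries of CD26+ NFs were above, and both of CD26- NFs below, the levels alone (log2 2.85, SE 0.36, adjusted p = 0.00455).

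Cilp (ENSMUSG00000042254, chr9:65265180-65280605), a matrix protein first described in cartilage that binds TGF-beta, went the other way. It was measured at 68.1 (CD26-) and 77.8 (CD26+) CPM alone, against 222 and 33.3 CPM in gel 4 and 260 and 46.5 CPM in gel 5. The subsets were close alone, and CD26- NFs were 6.03-fold higher beside tumor cells (log2 -2.81, SE 0.35, adjusted p = 0.00455). Cilp rose in CD26- NFs (log2 1.89) and fell in CD26+ NFs (log2 -0.92).

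Eln (ENSMUSG00000029675, chr5:134702593-134747323), which encodes elastin, the core of elastic fibers, was at 18.8 CPM alone, 25.4 CPM in gel 4 and 21.9 CPM in gel 5 for CD26-, and at 28.9, 6.17 and 6.58 CPM in that order for CD26+ NFs. The fall in CD26+ NFs passed (log2 -2.14), while the CD26- response (log2 0.39) did not. CD26- NFs were the higher subset in each co-culture gel, and the interaction was negative (log2 -2.54, SE 0.33, adjusted p = 0.00547).

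Igfbp5 (ENSMUSG00000026185, chr1:72857932-72874884) encodes a secreted binding protein that controls access of IGFs to their receptor. Its level was 51.7 CPM (CD26-) against 280 CPM (CD26+) alone, 714 against 542 CPM in gel 4, and 799 against 579 CPM in gel 5. Alone, CD26+ NFs were 5.41-fold higher. Beside tumor cells CD26- NFs were the higher subset in both gels, a difference that did not pass without the gel block (log2 -0.61, adjusted p = 0.0623) and passed with it (adjusted p = 0.00523). The 14.6-fold rise in CD26- NFs was set against a 2.00-fold rise in CD26+ NFs (log2 -2.90, SE 0.32, adjusted p = 0.00224).

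Ntrk2 (ENSMUSG00000055254, chr13:58806569-59133970), the TrkB receptor for brain-derived neurotrophic factor, followed Igfbp5. The libraries held 6.71 (CD26-) and 51.4 (CD26+) CPM alone, against 137 and 80.7 CPM in gel 4 and 204 and 115 CPM in gel 5. CD26- NFs rose 25.4-fold from the lowest value of the 6, and CD26+ NFs rose 1.90-fold (log2 -3.77, SE 0.44, adjusted p = 0.00278).

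Promoters are printed for those of the 6 genes that the promoter table held (RefSeq, GRCm38.p6), to show what lies before the starts of the genes whose calls were kept most widely. Of the 61 called genes 43 matched the table. Each run is the 250 bases before the transcription start, 5′ to 3′ on the gene's strand. Capitals mark matches to any of 5 short motifs searched on both strands. These were TGANTCA for AP-1, the motif GGAATG bound by TEAD factors, the RBPJ motif TGGGAA, the CCAAT box with these letters, and TATANA for a TATA box. Matches to the TEAD and RBPJ motifs can overlap. Lypd1 is shown for the first of 3 starts listed (chr1:125912929-125913178, minus strand), Cilp at chr9:65264930-65265179, plus strand, Igfbp5 at chr1:72874866-72875115, minus strand, and Ntrk2 at chr13:58806319-58806568, plus strand.
Lypd1: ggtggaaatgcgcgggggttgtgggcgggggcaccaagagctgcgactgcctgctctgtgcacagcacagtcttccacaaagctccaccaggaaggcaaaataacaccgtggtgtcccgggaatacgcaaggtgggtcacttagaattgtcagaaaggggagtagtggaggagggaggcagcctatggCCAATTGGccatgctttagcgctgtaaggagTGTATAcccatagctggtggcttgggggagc
Cilp: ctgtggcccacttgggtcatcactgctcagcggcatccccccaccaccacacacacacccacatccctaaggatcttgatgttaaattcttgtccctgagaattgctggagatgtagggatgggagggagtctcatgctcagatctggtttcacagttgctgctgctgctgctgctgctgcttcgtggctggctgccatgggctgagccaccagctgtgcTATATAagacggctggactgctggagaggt
Igfbp5: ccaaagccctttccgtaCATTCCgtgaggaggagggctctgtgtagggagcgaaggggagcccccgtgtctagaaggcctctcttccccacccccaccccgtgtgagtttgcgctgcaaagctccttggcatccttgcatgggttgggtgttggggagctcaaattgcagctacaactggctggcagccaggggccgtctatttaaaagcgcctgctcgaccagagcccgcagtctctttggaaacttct
Ntrk2: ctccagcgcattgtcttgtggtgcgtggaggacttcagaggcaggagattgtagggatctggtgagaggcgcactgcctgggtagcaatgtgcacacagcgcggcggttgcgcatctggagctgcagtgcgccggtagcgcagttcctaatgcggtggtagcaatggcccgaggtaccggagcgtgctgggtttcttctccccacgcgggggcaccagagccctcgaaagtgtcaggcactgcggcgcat
Lypd1 held a CCAAT box at 62 to 58 bases, a CCAAT match on the opposite strand at 59 to 55 bases that overlaps it, and a TATA box match on the opposite strand at 31 to 26 bases before the start, Cilp a TATA box match at 30 to 25 bases, Igfbp5 a TEAD match on the opposite strand at 233 to 228 bases, and Ntrk2 none of the 5. Over all 27025 genes of the table, counting a match at any listed start, the AP-1 motif occurred in 7.82%, the TEAD motif in 14.4%, the RBPJ motif in 24.1%, the CCAAT box in 37.5% and the TATA box in 25.7%. Among the 27 positive genes matched, the counts were 3, 2, 4, 10 and 9 in the same order, and among the 16 negative genes 2, 1, 1, 4 and 4. These are matches of letters only.

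Besides Lypd1, Rab30 and Cilp, 6 called genes passed in opposite directions in the subsets. Dtna encodes alpha-dystrobrevin of the dystrophin complex. It was at 2.61 CPM (CD26-) against 0.772 CPM (CD26+) alone, 0.424 against 5.97 CPM in gel 4, and 0.748 against 4.67 CPM in gel 5 (log2 4.87, SE 0.79, adjusted p = 0.0159). Rassf4, a Ras association domain protein, had 2.61 (CD26-) and 1.26 (CD26+) CPM alone, against 0.485 and 3.92 CPM in gel 4 and 0.173 and 4.88 CPM in gel 5, the last CD26- value being 3 counts (log2 4.74, SE 0.84, adjusted p = 0.0292). In both genes CD26+ NFs were lower alone and higher in each co-culture gel.

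Cables1, a substrate of Cdk5 and Abl kinases, fell in CD26+ NFs from the one high library of the 6. It was at 1.37 CPM alone, 2.61 CPM in gel 4 and 3.97 CPM in gel 5 for CD26-, and at 18.8, 2.38 and 1.77 CPM in that order for CD26+ NFs (log2 -4.47, SE 0.60, adjusted p = 0.00621). Other genes overlap 34.2% of its exon bases, so its counts are uncertain. Cox6b2, the testis form of a cytochrome c oxidase subunit (log2 -1.84, adjusted p = 0.0434), and Ctla2a, an inhibitor of cysteine proteases with close paralogs (log2 -1.73, adjusted p = 0.0455), shared the pattern with smaller values. In all 3 genes CD26+ NFs were the higher subset alone, and the difference beside tumor cells passed neither with nor without the gel block. In Cables1 CD26- NFs were the higher subset in both co-culture gels (log2 CD26+ minus CD26- -0.27 and -1.30), while in Cox6b2 and Ctla2a the sign differed between the gels.

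Anln encodes anillin, which organizes the cytokinetic ring. It was at 27.8 CPM (CD26-) against 6.11 CPM (CD26+) alone, 11.0 against 10.5 CPM in gel 4, and 12.8 against 15.3 CPM in gel 5 (log2 2.27, SE 0.42, adjusted p = 0.0389). Its level in the tumor libraries was 170 CPM in gel 4 and 239 CPM in gel 5, and the tumor RNA share given above would amount to 62.0% and 95.7% of the CD26+ co-culture values. After subtracting that share the mean difference of differences moved from 2.23 to 0.28 on the log2 scale.

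The largest pattern held 22 genes that fell in both subsets and fell further in CD26- NFs. Sfrp2, a secreted Wnt modulator, was among the most abundant of them. It was at 2835 CPM (CD26-) against 2195 CPM (CD26+) alone, 0.848 against 6.30 CPM in gel 4, and 1.15 against 10.0 CPM in gel 5. CD26- NFs were 1.29-fold higher alone. Beside tumor cells CD26- NFs kept 0.0353% and CD26+ NFs 0.372% of the level alone, which left the CD26+ libraries 8.17-fold above the CD26- libraries beside tumor cells (log2 3.35, SE 0.46, adjusted p = 0.00621).

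Efemp1, which encodes fibulin-3 of the extracellular matrix, had the same shape. It was at 514 CPM alone, 0.727 CPM in gel 4 and 0.978 CPM in gel 5 for CD26-, and at 635, 7.71 and 10.5 CPM in that order for CD26+ NFs (log2 3.06, SE 0.40, adjusted p = 0.00547). Itgbl1, a secreted protein related to integrin beta chains, was at 100 (CD26-) and 124 (CD26+) CPM alone, against 0.242 and 4.88 CPM in gel 4 and 0.0575 and 4.03 CPM in gel 5, the CD26- co-culture values being 4 and 1 counts (log2 4.52, SE 0.52, adjusted p = 0.00278). Col6a5, a collagen VI chain, was at 170 CPM (CD26-) against 175 CPM (CD26+) alone, 0.121 against 1.09 CPM in gel 4, and 0.173 against 1.77 CPM in gel 5, where the CD26- values were 2 and 3 counts (log2 3.13, SE 0.58, adjusted p = 0.0406). In all of these the subsets were close alone and apart beside tumor cells, a shape favored by choosing genes by their interaction. The fitted values of Itgbl1 and Col6a5, and of Kng2 below, depend on the prior count, since CD26- NFs were near or under the floor in co-culture. With CD26- NFs in co-culture set at the floor, the interaction was 2.96 for Col6a5 and 2.86 for Kng2.

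Kng2, a kininogen, was at 22.8 CPM alone, 0 CPM in gel 4 and 0.115 CPM in gel 5 for CD26-, and at 36.1, 2.38 and 1.70 CPM in that order for CD26+ NFs (log2 4.25, SE 0.78, adjusted p = 0.0361). Prl2c2, a proliferin of the prolactin family with near-identical copies in the genome, was at 27.4 CPM (CD26-) against 33.5 CPM (CD26+) alone, 0.606 against 11.6 CPM in gel 4, and 0.518 against 15.7 CPM in gel 5 (log2 4.26, SE 0.45, adjusted p = 0.00194). Counts of Prl2c2 may be split among these copies, and its tumor library level in gel 5 (22.6 CPM) times the tumor RNA share exceeds the CD26- value of that gel. Pdk4, the kinase that inhibits pyruvate dehydrogenase, was at 62.8 (CD26-) and 23.5 (CD26+) CPM alone, against 2.18 and 10.1 CPM in gel 4 and 2.30 and 4.88 CPM in gel 5 (log2 3.12, SE 0.48, adjusted p = 0.0133). CD26- NFs were higher in Pdk4 alone and lower in both co-culture gels.

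Further members of this group were Col14a1, a collagen that decorates fibrils (log2 2.10, adjusted p = 0.0144), Igf1, the growth factor (log2 1.83, adjusted p = 0.0499), Tnn, a tenascin (log2 3.11, adjusted p = 0.00807), Cemip, which degrades hyaluronan (log2 1.92, adjusted p = 0.0292), and Selenop, the secreted selenium carrier (log2 2.16, adjusted p = 0.00739). Igf1 was at 2106 CPM (CD26-) against 1029 CPM (CD26+) alone, 13.9 against 26.9 CPM in gel 4, and 19.0 against 31.8 CPM in gel 5. Its difference within co-culture did not pass without the gel block (adjusted p = 0.0993), as was also the case for Tnn, Cemip and the matricellular gene Smoc1. With the block it passed for Igf1 (adjusted p = 0.00471) and Smoc1 (adjusted p = 0.00897), and not for Tnn and Cemip (adjusted p = 0.259 and 0.102). In these 4 genes CD26- NFs were higher alone, by 2.05-fold for Igf1 to 4.97-fold for Tnn. Selenop was at 475 CPM alone, 22.3 CPM in gel 4 and 19.2 CPM in gel 5 for CD26-, and at 642, 139 and 116 CPM in that order for CD26+ NFs. Here the subsets were closer alone, and CD26+ NFs were 6.15-fold higher in co-culture.

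The remaining members that fell in both were Rspo3, which amplifies Wnt signaling, Sema3c, a secreted guidance cue, the enzymes Adh1 and Fmo1, Serpinb1a, an inhibitor of neutrophil elastase, the potassium channel gene Kcnj15, and Ifi205, Nsg1 and Mamdc2. Rspo3 was at 19.6 CPM alone, 1.70 CPM in gel 4 and 1.44 CPM in gel 5 for CD26-, and at 34.8, 16.5 and 13.6 CPM in that order for CD26+ NFs (log2 2.40, SE 0.38, adjusted p = 0.0144). Sema3c was at 100 (CD26-) and 101 (CD26+) CPM alone, against 12.7 and 47.8 CPM in gel 4 and 10.5 and 32.9 CPM in gel 5 (log2 1.75, SE 0.34, adjusted p = 0.0434). Both were higher in CD26+ NFs of each co-culture gel. The interactions of the other 7 were 1.96 to 2.92. Tumor RNA would account for up to 61.1% of a CD26- co-culture value of Sema3c, and the difference of differences of Sema3c was 2.37 after subtraction against 1.73 before.

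In 3 genes the fall passed in CD26- NFs and not in CD26+ NFs: Cp, the copper protein ceruloplasmin (log2 1.69, adjusted p = 0.0339), Col24a1, a fibrillar collagen chain (log2 1.67, adjusted p = 0.0499), and Ifi207 (log2 1.76, adjusted p = 0.0455), which has close paralogs, among them Ifi205. Cp was at 63.4 CPM (CD26-) against 131 CPM (CD26+) alone, 20.3 against 156 CPM in gel 4, and 24.4 against 149 CPM in gel 5. CD26+ NFs were 2.06-fold higher alone and 6.81-fold higher beside tumor cells, and tumor RNA would account for up to 70.0% of a CD26- value.

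Genes that rose more in CD26+ NFs included Entpd1, the CD39 enzyme that degrades extracellular ATP, and Ccr1, a receptor for inflammatory chemokines. Entpd1 was at 1.12 CPM (CD26-) against 0 CPM (CD26+) alone, 15.6 against 28.1 CPM in gel 4, and 12.3 against 26.8 CPM in gel 5. Ccr1 was at 0.745 (CD26-) and 0 (CD26+) CPM alone, against 5.51 and 12.1 CPM in gel 4 and 5.06 and 14.3 CPM in gel 5. In both genes CD26+ NFs were lower alone, at 0 counts in the single library, and higher in both co-culture gels, where the difference passed (adjusted p = 0.0318 and 0.0185). With CD26+ NFs alone set at the floor of that library, the rise was at least 130-fold for Entpd1 and at least 62.7-fold for Ccr1, and the ratio of the rises in the subsets at least 10.4-fold and 8.84-fold. The fitted interactions (log2 7.98, SE 1.26, adjusted p = 0.0144 and log2 7.74, SE 1.42, adjusted p = 0.0368) depend on the prior count and are no bounds. DESeq2 did not call either (adjusted p = 0.0781 and 0.136).

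Macrophages carry both proteins. Per the study's methods, the NFs were gated before culture as lacking CD45, CD31, EpCAM and CD49f, and the CD45 gate would remove macrophages, whereas the sort after the gels went by color. The 12 macrophage markers (4 to 6 of them above the floor in each library) summed to 13.8 CPM (CD26-) and 17.0 CPM (CD26+) in NFs alone. Beside tumor cells the sums were 54.5 against 78.3 CPM in gel 4 and 37.3 against 54.4 CPM in gel 5. Adgre1, Tyrobp and C1qb were at 0 in all 6 libraries. Of the 6 markers tested, 4 had a positive and 2 a negative interaction, and none was called. In CD26- NFs 4 of them rose and 1 fell, and in CD26+ NFs 5 rose and 1 fell. The part of other cells in these values was not tested. In bulk samples, fewer cells of a type and less RNA per cell cannot be told apart.

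Serpini1, which encodes the protease inhibitor neuroserpin, was at 2.36 CPM alone, 5.76 CPM in gel 4 and 5.35 CPM in gel 5 for CD26-, and at 1.61, 36.0 and 27.9 CPM in that order for CD26+ NFs (log2 3.04, SE 0.48, adjusted p = 0.0144). Sema3a, a repulsive guidance cue (log2 1.65, adjusted p = 0.0339), and Cyp26b1, which clears retinoic acid (log2 1.64, adjusted p = 0.0434), also rose in both subsets. Sema3a was at 25.8 CPM (CD26-) against 17.3 CPM (CD26+) alone, 54.3 against 117 CPM in gel 4, and 56.3 against 120 CPM in gel 5. In these 3 genes CD26- NFs were the higher subset alone and CD26+ NFs the higher one in each co-culture gel.

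Pgm5 encodes aciculin, a protein of cell adhesion sites related to phosphoglucomutase. It was at 4.41 (CD26-) and 0.351 (CD26+) CPM alone, against 7.63 and 14.2 CPM in gel 4 and 6.04 and 10.5 CPM in gel 5 (log2 4.45, SE 0.62, adjusted p = 0.00739). The CD26+ value alone rested on 5 counts, and the difference within co-culture did not pass without the gel block (adjusted p = 0.146) and passed with it (adjusted p = 0.0326). Zfp760, a zinc finger gene, rose in CD26+ NFs from a like start (adjusted p = 0.0225). It was at 4.84 CPM (CD26-) against 5.97 CPM (CD26+) alone, 6.18 against 34.7 CPM in gel 4, and 5.70 against 33.7 CPM in gel 5.

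Besides Igfbp5 and Ntrk2, 9 genes rose in both subsets and rose further in CD26- NFs. Slit1, a ligand of Robo guidance receptors, was at 0.248 CPM (CD26-) against 4.00 CPM (CD26+) alone, 122 against 148 CPM in gel 4, and 129 against 150 CPM in gel 5. The subsets were level beside tumor cells, and the interaction (log2 -3.74, SE 0.55, adjusted p = 0.0104) rested on gel 1, with 4 counts in CD26- against 57 counts in CD26+ NFs.

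Add2, the beta subunit of adducin in the membrane skeleton, had 0.186 (CD26-) and 2.53 (CD26+) CPM alone, against 33.4 and 23.0 CPM in gel 4 and 42.1 and 25.0 CPM in gel 5, with 3 counts in CD26- NFs alone (log2 -4.39, SE 0.66, adjusted p = 0.0124). Slc17a7, the vesicular glutamate transporter VGLUT1, was at 0.0621 CPM alone, 6.48 CPM in gel 4 and 5.75 CPM in gel 5 for CD26-, and at 1.68, 4.30 and 4.74 CPM in that order for CD26+ NFs, with 1 count in CD26- NFs alone (log2 -5.06, SE 0.94, adjusted p = 0.0402). Both fitted values depend on the prior count, and DESeq2 did not call Slc17a7 (adjusted p = 0.183). With CD26- NFs alone set at the floor, the interaction was -4.41 for Add2 and -3.61 for Slc17a7. In both genes the subsets differed most alone, where CD26- NFs were at or under the floor.

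Cspg4 encodes the NG2 proteoglycan of pericytes and activated stroma. It was at 2.48 CPM (CD26-) against 5.97 CPM (CD26+) alone, 148 against 59.7 CPM in gel 4, and 175 against 72.8 CPM in gel 5 (log2 -2.57, SE 0.40, adjusted p = 0.0144). Notch3, a Notch receptor of mural cells, was at 28.3 (CD26-) and 68.9 (CD26+) CPM alone, against 188 and 125 CPM in gel 4 and 271 and 141 CPM in gel 5 (log2 -2.10, SE 0.37, adjusted p = 0.0272). In both genes CD26+ NFs were the higher subset alone and CD26- NFs the higher one in each co-culture gel. The 8 pericyte and smooth muscle markers, these among them, summed to 66.7 (CD26-) and 95.1 (CD26+) CPM alone, 392 and 216 CPM in gel 4, and 568 and 277 CPM in gel 5. Cspg4 and Notch3 made up most of each co-culture sum, so the change in order of the sums mainly repeats these called genes. All 8 were above the floor in each library. Of these 8 markers, 5 had a positive and 3 a negative interaction, and only Cspg4 and Notch3 were called. Their part in the result was not tested.

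Rhbdf2 encodes iRhom2, which is needed for maturation of the shedding protease ADAM17. It was at 1.61 CPM (CD26-) against 5.90 CPM (CD26+) alone, 87.7 against 62.6 CPM in gel 4, and 79.6 against 60.7 CPM in gel 5 (log2 -2.33, SE 0.37, adjusted p = 0.0154). Enpp2, the enzyme autotaxin that makes lysophosphatidic acid, was at 2.17 (CD26-) and 24.3 (CD26+) CPM alone, against 27.1 and 68.7 CPM in gel 4 and 21.8 and 47.0 CPM in gel 5 (log2 -2.26, SE 0.41, adjusted p = 0.0339). Enpp2 stayed higher in CD26+ NFs in each gel, by 11.2-fold alone and 2.36-fold beside tumor cells, whereas Rhbdf2 crossed. Adcy7, an adenylate cyclase (log2 -1.69, adjusted p = 0.0434), and the phosphatase gene Ptpn5 (adjusted p = 0.0434) belonged to the same group. Ptpn5 was at 7.08 (CD26-) and 36.8 (CD26+) CPM alone, against 55.2 and 58.7 CPM in gel 4 and 56.6 and 89.2 CPM in gel 5.

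**Figure D3:**
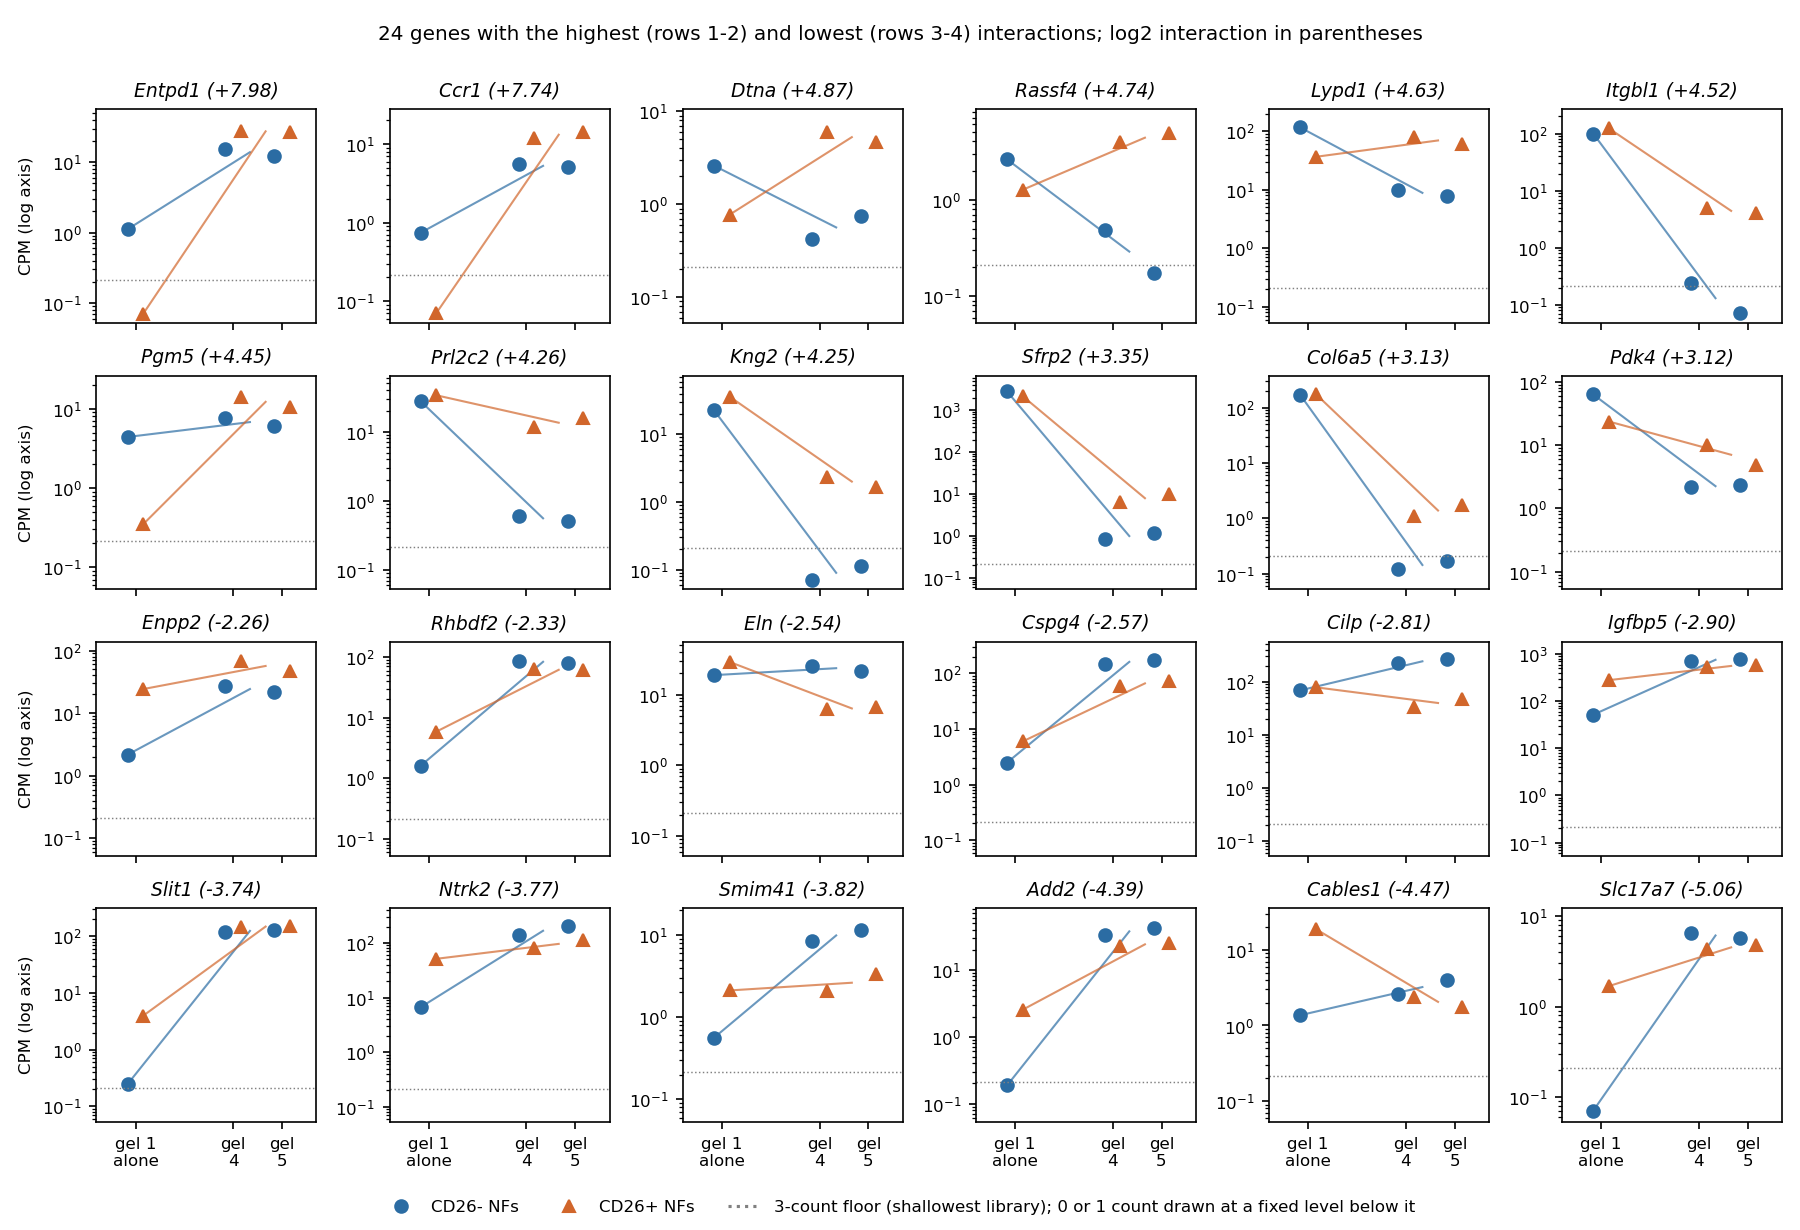
CPM on a log axis in each of the 6 NF libraries for the 12 called genes with the highest (upper 2 rows) and the 12 with the lowest (lower 2 rows) interaction among those with a mean of at least 1 CPM; circles are CD26- NFs, triangles CD26+ NFs, lines join the value alone to the geometric mean of gels 4 and 5, and values of 0 or 1 count are drawn at a fixed level below the dotted 3-count floor. The lines cross in genes such as Lypd1 and Ntrk2 and move apart without crossing in genes such as Itgbl1 and Kng2.

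In 5 genes a rise passed in CD26- NFs and the CD26+ value did not. Spon2, a matrix protein of the spondin family, was at 37.7 CPM (CD26-) against 43.6 CPM (CD26+) alone, 129 against 33.3 CPM in gel 4, and 136 against 44.1 CPM in gel 5 (log2 -2.01, SE 0.33, adjusted p = 0.0167). Smim41, a small membrane protein, was at 0.559 CPM alone, 8.42 CPM in gel 4 and 11.5 CPM in gel 5 for CD26-, and at 2.11, 2.06 and 3.32 CPM in that order for CD26+ NFs (log2 -3.82, SE 0.73, adjusted p = 0.0434). Both had CD26- NFs above CD26+ NFs in each co-culture gel, by 3.42-fold and 3.69-fold. Ephx1, an epoxide hydrolase (log2 -1.81, adjusted p = 0.0221), Enpep, an aminopeptidase that cleaves angiotensin II (log2 -1.84, adjusted p = 0.0433), and Ifi30, a lysosomal thiol reductase (log2 -1.89, adjusted p = 0.0146), started lower in CD26- NFs, and their differences within co-culture did not pass with or without the gel block.

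Sfrp4 and H19 fell in both subsets and fell further in CD26+ NFs, while Plagl1 and Eln fell in CD26+ NFs without passing in CD26- NFs (log2 -0.31 and 0.39). Sfrp4, a secreted Wnt antagonist of the same family as Sfrp2, was at 53.8 CPM (CD26-) against 162 CPM (CD26+) alone, 15.4 against 12.9 CPM in gel 4, and 18.1 against 11.7 CPM in gel 5 (log2 -2.07, SE 0.31, adjusted p = 0.0124). Sfrp2 and Sfrp4 thus both fell in both subsets, with interactions of opposite sign. H19, an imprinted non-coding RNA, was at 267 (CD26-) and 465 (CD26+) CPM alone, against 26.8 and 15.2 CPM in gel 4 and 33.6 and 14.1 CPM in gel 5 (log2 -1.88, SE 0.32, adjusted p = 0.0221). Plagl1, an imprinted zinc finger transcription factor, was at 33.3 CPM alone, 24.9 CPM in gel 4 and 26.5 CPM in gel 5 for CD26-, and at 48.4, 12.7 and 8.77 CPM in that order for CD26+ NFs (log2 -1.83, SE 0.34, adjusted p = 0.0413). H19 and Plagl1 were lower in CD26+ NFs of both co-culture gels and higher alone.

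Gene lists of known roles held from 0 to 4 called members each, against 0.376% called over all genes. The lists were drawn up with results of these data known, so a higher share in a list is no finding. Their medians are set here against the median of 0.03 and the 8539 positive of 16231 values over all genes. Over all genes tested, 2701 rose and 2296 fell in CD26- NFs, and 3092 rose and 2464 fell in CD26+ NFs. Of 24 Wnt modulators tested, Sfrp2 and Rspo3 were called positive and Sfrp4 negative (median -0.18). Of 26 guidance genes, Sema3a and Sema3c were called positive (median 0.21). Of 18 purine ectoenzymes and receptors, Entpd1 was positive and Enpp2 negative (median -0.19, or -0.14 with genes at the floor set to their bound). Of 21 chemokines and receptors, Ccr1 was called (median 0.47), and of 32 growth factor genes Igf1 was positive and Igfbp5 and Ntrk2 negative (median 0.21).

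Of 21 genes best known from neurons, Dtna was called positive and Slc17a7, Add2 and Cables1 negative (median -0.16), with 10 of the 21 at or under the floor in a whole group. These members were listed with their values known. Of 18 CD26+ progenitor genes, Sema3c was called positive (median 0.17, or 0.27 at the bounds), and of 16 CD26- fibroblast genes none (-0.04).

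No member was called in 10 other lists, yet some leaned to a side. Of 22 cell cycle genes 21 were positive (median 0.88): 13 fell in CD26- NFs and 3 in CD26+ NFs, with 1 rising in each. These genes summed to 1130 and 1671 CPM in the tumor libraries of gels 4 and 5, against 220.4 to 286 CPM in the co-culture NF libraries, where the tumor RNA share was 2.56% and 2.75% in CD26- and 3.82% and 6.15% in CD26+ NFs. After subtracting that share, the median of their mean difference of differences moved from 0.85 to 0.09 and the positive members from 21 to 13 of 22, an alternative chosen after seeing the data. Of 24 fibrillar matrix genes 21 were negative (median -0.56): 11 rose and 4 fell in CD26- NFs, and 7 rose and 8 fell in CD26+ NFs. Their median was -0.57 before and -0.59 after the same subtraction. Of the 10 fibroblast markers, whose summed level is given above, 7 were negative (median -0.38), Col1a1, Col1a2, Col3a1 and Fap being in both lists, and their part in the matrix values was not tested. Of 20 p53 targets 19 were negative (median -0.42), and of 18 contractile genes 14 were negative (median -0.21). The medians were -0.23 for 20 TGF-beta and YAP targets, -0.28 for 22 BMP and TGF-beta ligands and antagonists, -0.15 for 21 adipogenic genes, 0.07 for 24 cytokine genes, 0.14 for 21 interferon-induced genes and -0.03 for 20 matrix proteases. Members of a list share regulators and libraries, so that their signs are not independent.

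**Figure D4:**
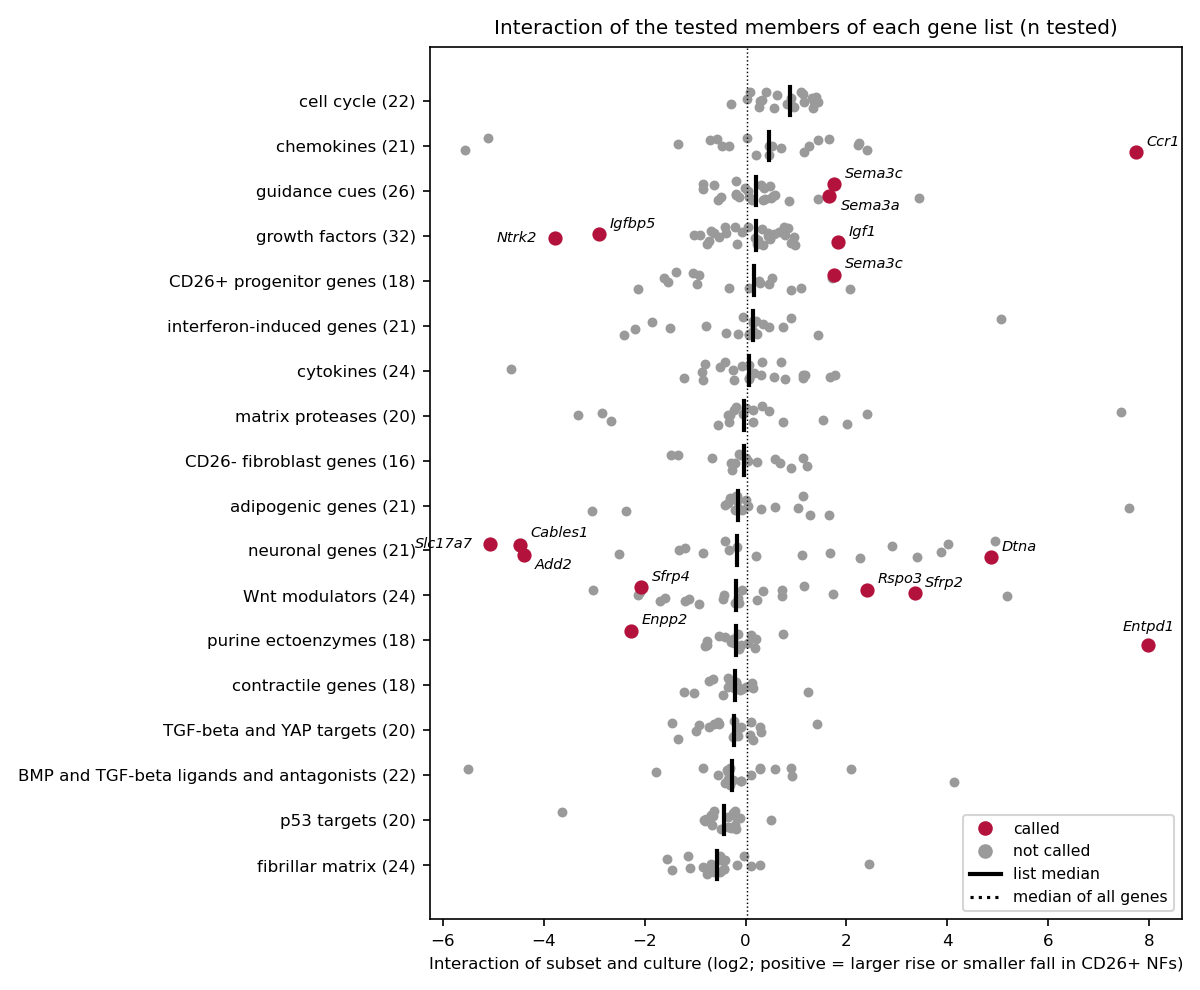
Interaction (log2) of each tested member of 18 gene lists, ordered by list median (black bars); called members are red and named, the others grey, and the dotted line is the median of all genes (0.03). Cell cycle genes lie to the right (median 0.88, with tumor RNA not subtracted) and fibrillar matrix genes to the left (median -0.56) without a called member, while called genes such as Ccr1 and Ntrk2 lie at the edge of their lists.

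Among genes often used to describe fibroblasts beside tumors, Col1a1, Acta2, Lrrc15, Cxcl12 and Mmp9 were not called. Col1a1, the main fibrillar collagen chain, was at 18556 CPM (CD26-) against 17368 CPM (CD26+) alone, 14344 against 7882 CPM in gel 4, and 13752 against 9544 CPM in gel 5 (log2 -0.62, SE 0.36, adjusted p = 0.778). Acta2, smooth muscle actin, was at 574 (CD26-) and 343 (CD26+) CPM alone, against 238 and 80.2 CPM in gel 4 and 360 and 152 CPM in gel 5 (log2 -0.65, SE 0.48, adjusted p = 0.878). Lrrc15, a surface marker of matrix-producing fibroblasts, was at 126 CPM alone, 672 CPM in gel 4 and 796 CPM in gel 5 for CD26-, and at 66.0, 230 and 279 CPM in that order for CD26+ NFs (log2 -0.63, SE 0.33, adjusted p = 0.723). For these 3 genes the CD26+ value was below the CD26- value in every gel, alone included, and the difference passed within co-culture (adjusted p = 0.0295, 0.00603 and 0.000182).

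Cxcl12, a chemokine that attracts leukocytes, was at 2037 CPM (CD26-) against 1024 CPM (CD26+) alone, 42.9 against 35.1 CPM in gel 4, and 53.8 against 36.7 CPM in gel 5 (log2 0.53, SE 0.33, adjusted p = 0.796). It fell in both subsets, 42.2-fold and 28.5-fold. Mmp9, a gelatinase, was at 12.9 (CD26-) and 18.6 (CD26+) CPM alone, against 4443 and 5350 CPM in gel 4 and 3880 and 6332 CPM in gel 5 (log2 -0.06, SE 0.36, adjusted p = 1), with rises of 322-fold and 314-fold. Dpp4 itself (log2 -1.38, adjusted p = 0.991) was too close to the floor for a difference to be detectable. Epcam, an epithelial adhesion molecule, was at 0 counts in both subsets alone and at 6.42 to 15.9 CPM in the co-culture libraries. With 0 counts in both libraries alone its interaction cannot be estimated.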

How the data were processed

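Per the labels, RNA of sorted cells was made into stranded mRNA libraries and sequenced. The authors deposited a table of raw counts per gene without normalization. The 1 line without a gene ID held only 0 and was left out. The submitters' processing notes name HISAT2 2.2.1 and GRCm38. The counting program and its use of strand are not given in the sources used here, so overlapping genes and close paralogs have uncertain counts. One allele of the tumor model is not reported here.

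The 6 NF libraries were fitted as 4 group means with edgeR 4.0.16 (R 4.3.3; quasi-likelihood F test, TMM, filterByExpr, 2 residual degrees of freedom), with Benjamini-Hochberg adjustment over 16231 genes at 0.05. Standard errors (SE) are of the log2 value. Per-gel values used TMM-scaled log2 CPM with a prior count of 2, and CPM printed is per library total. A self-test on simulated data was run. Alternatives used RLE scaling, other filters, DESeq2 1.42.0, limma-voom (limma 3.58.1), the gel as block, single co-culture libraries left out, and removal of tumor RNA or of genes higher in tumor cells. Gel numbers in the labels name shared gels: deviations of same-gel libraries from their group means correlated at r = 0.13 across genes. The 2 co-culture libraries of a subset came from gels with different tumor lines. They differed by more than counting noise in 48.5% (CD26-) and 55.9% (CD26+) of genes with at least 100 counts over both libraries.

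Values in every library were printed for the 12 highest and 12 lowest called interactions with a mean of at least 1 CPM, called list members and 7 genes of interest (Dpp4, Cxcl12, Mmp9, Acta2, Lrrc15, Col1a1 and Epcam); any called gene could be named. Values of other called genes were added to show a pattern. Members, lists and tests were chosen with earlier results of these data known.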

Additional observations from a re-analysis of the deposited data

Results flagged for a closer look

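The response to tumor cells differed between the subsets, by the test of the interaction itself, in 37 genes with a larger rise or smaller fall in CD26+ NFs and in 24 genes with a larger rise or smaller fall in CD26- NFs (edgeR, adjusted p under 0.05 and the same sign in both co-culture gels, 0.376% of genes tested). In 9 of these the responses passed in opposite directions. CD26- NFs fell and CD26+ NFs rose in Dtna (interaction 4.87), Rassf4 (4.74), Lypd1 (4.63), Rab30 (2.85) and Anln (2.27). CD26- NFs rose and CD26+ NFs fell in Ctla2a (-1.73), Cox6b2 (-1.84), Cilp (-2.81) and Cables1 (-4.47). The mean difference of differences of Anln over the gels moved from 2.23 to 0.28 after subtraction of tumor RNA, and the exons of Cables1 overlap other genes. Each subset alone had 1 library, so these values rest on gel 1 as much as on gels 4 and 5. Groups held at most 2 libraries, too few to look for a sample that stands apart.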

How the results depend on the processing

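The count of 61 called genes stayed within 1.5 times under RLE scaling (63) and without genes higher in tumor cells (43 of 7757 tested, which leaves out 10 of the 61). Requiring an absolute log2 value above 2 left 43, and dropping the same-sign criterion left 61. It moved to 18 with no filter on low counts, 38 with at least 1 CPM in 2 libraries, 395 with the gel as replicate block, 97 with DESeq2 and 8 with limma-voom, and to between 0 and 30 when a co-culture library was left out. For the difference within co-culture (975 genes), the count was 603 without a filter, 2221 with the replicate block, and 0 to 451 without one library. The responses to tumor cells moved to 2680 (CD26-) and 2976 (CD26+) genes without genes higher in tumor cells, of 7757 tested, and to 2947 to 4714 and 3200 to 4903 without one library. The gel cannot serve as a block there, since gel and culture coincide. The number of distinct list members called in a fit was 15 in the fit reported, 6 without a filter, 24 with DESeq2, 2 with limma-voom, 67 with the block, and 0 to 7 without one library. The number of called genes whose 2 responses also passed in opposite directions in the same fit was 9 in the fit reported, 4 without a filter, 5 at 1 CPM in 2 libraries, 3 under limma-voom, and 0 to 5 without one library.

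The 61 genes kept their sign in each alternative that tested them. Subtracting tumor RNA moved the mean difference of differences of 5 of them by more than the spread between gels, from 2.23 to 0.28 (Anln), 4.01 to 5.27 (Prl2c2), 1.73 to 2.37 (Sema3c), 1.70 to 2.70 (Cp) and -2.26 to -2.33 (Rhbdf2). Mmp9 (-0.06 with all libraries) ranged from -0.26 to 0.059 and Dpp4 (-1.38) from -2.23 to 0.93 when a library was left out, turning without the CD26+ library of gel 4 and the CD26- library of gel 5, and neither was called. The medians of the 18 lists kept their sign in 184 of 198 pairs of list and fit, over 11 fits. Besides the cell cycle list, subtracting tumor RNA, chosen for lists after seeing the data, moved 5 medians by more than the spread between gels, from 0.30 to 0.12 (CD26+ progenitor), 0.08 to 0.23 (cytokines), 0.18 to 0.09 (growth factors), 0.09 to 0.01 (interferon-induced) and -0.42 to -0.43 (p53 targets). The cause of these shifts was not tested. RLE scaling moved the median over all genes from 0.03 to 0.01. At these depths, values near 3 counts limit Entpd1, Ccr1, Rassf4, Itgbl1, Kng2, Col6a5, Add2 and Slc17a7.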

Other observations

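With the gel as replicate block, 67 distinct list members were called (395 genes, 2.43%, over all genes tested), 15 of them also without the block. These calls rest on 1 residual degree of freedom, and the genes below were picked after their values were seen. Among chemokines and their receptors 7 of 21 were positive and none negative: Ccl8, Ccl9, Ccl11, Cxcl2, Cxcl5, Ccr1 and Ackr4. Ccl8, a monocyte attractant, was at 38.4 CPM (CD26-) against 58.1 CPM (CD26+) alone, 27.0 against 84.0 CPM in gel 4, and 26.1 against 111 CPM in gel 5 (log2 1.24, adjusted p = 0.00406 with the block and 0.154 without it). Cxcl5, which attracts neutrophils, was at 200 (CD26-) and 112 (CD26+) CPM alone, against 9.88 and 18.8 CPM in gel 4 and 12.1 and 15.6 CPM in gel 5 (log2 1.45, adjusted p = 0.000519 with the block and 0.0903 without it). CD26+ NFs were above CD26- NFs in each co-culture gel for both genes, and below them alone for Cxcl5. Among cytokine and inflammatory genes, positive calls included Saa3 and Steap4, and C3 was negative. Saa3, an acute-phase protein, was at 44.4 CPM alone, 30.7 CPM in gel 4 and 24.3 CPM in gel 5 for CD26-, and at 407, 530 and 596 CPM in that order for CD26+ NFs (log2 1.14, adjusted p = 0.0122 with the block and 0.189 without it). C3, the central complement component, was at 258 CPM (CD26-) against 755 CPM (CD26+) alone, 660 against 861 CPM in gel 4, and 609 against 765 CPM in gel 5 (log2 -1.22, adjusted p = 0.00299 with the block and 0.141 without it). Of 20 matrix proteases, 3 were positive (Mmp8, Mmp13 and Mmp16) and 1 negative (Mmp15). Mmp13, a collagenase, was at 601 CPM (CD26-) against 636 CPM (CD26+) alone, 1355 against 5032 CPM in gel 4, and 1962 against 5391 CPM in gel 5 (log2 1.57, adjusted p = 1.22e-05 with the block and 0.145 without it).

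Of 24 Wnt modulators, 3 were positive (Sfrp2, Rspo3 and Notum) and 7 negative (Sfrp4, Frzb, Dkk2, Wnt4, Wnt11, Rspo2 and Nkd2) with the block. Notum, an enzyme that inactivates Wnt ligands, was at 13.8 (CD26-) and 14.6 (CD26+) CPM alone, against 3.45 and 12.1 CPM in gel 4 and 3.34 and 12.2 CPM in gel 5 (log2 1.73, adjusted p = 0.000646 with the block and 0.0903 without it). Wnt11 was at 1.18 CPM alone, 66.0 CPM in gel 4 and 57.1 CPM in gel 5 for CD26-, and at 2.60, 28.5 and 34.1 CPM in that order for CD26+ NFs (log2 -2.14, adjusted p = 0.00114 with the block and 0.0786 without it). Of 24 fibrillar matrix genes, Postn, Tnc, Fap and Cthrc1 were negative and Comp positive. Postn, which encodes periostin, was at 1792 CPM (CD26-) against 1885 CPM (CD26+) alone, 4681 against 1969 CPM in gel 4, and 6224 against 2313 CPM in gel 5 (log2 -1.44, adjusted p = 7.48e-05 with the block and 0.158 without it), level between the subsets alone and over 2-fold higher in CD26- NFs of both co-culture gels. Of 21 adipogenic genes, Pparg, Fabp4, Cd36 and Angptl4 were positive and none negative, while without the block 9 of the 21 values were above 0 and 12 below (median -0.15). The 6 adipocyte markers summed to 4.84 (CD26-) and 19.7 CPM (CD26+) alone and to 0.707 to 1.99 CPM in the co-culture libraries, and of the 4 tested 2 were positive and 2 negative, Adipoq and Plin1 being the negative ones. Adipoq and Plin1 are in both lists, and their part in the result was not tested. Fabp4, a fatty acid carrier, was at 15.5 (CD26-) and 28.4 (CD26+) CPM alone, against 8.54 and 38.3 CPM in gel 4 and 10.8 and 49.6 CPM in gel 5 (log2 1.28, adjusted p = 0.00439 with the block and 0.235 without it). Of 21 genes best known from neurons, 2 were positive (Nefm and Dtna) and 4 negative (Slc17a7, Uchl1, Add2 and Cables1). Nefm, a neurofilament chain, was at 0.745 CPM alone, 1.88 CPM in gel 4 and 2.59 CPM in gel 5 for CD26-, and at 1.47, 35.6 and 32.5 CPM in that order for CD26+ NFs (log2 2.92, adjusted p = 0.00115 with the block and 0.0811 without it).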
